A study of Danio rerio with 2 samples.

Results

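The genes described here are the listed hairy-related (her), hes, hey and helt genes of the zebrafish (Danio rerio), leaving out the tandem her4 copies, her12, her15.1 and her15.2. They were chosen by name, from the zebrafish KEGG hit or the product name in a deposited table of expression differences, and 8 of its 1287 genes met the rule. The table holds messenger RNA measurements of whole embryos on the AB background at 28 hours post fertilization, from 1 library of embryos homozygous for an ezh2 mutation (ezh2-/-) and 1 library of wild-type (WT) embryos. ezh2 encodes the catalytic subunit of Polycomb repressive complex 2, which methylates histone H3 on lysine K27. The sources used here name neither the mutant allele nor how many embryos were pooled. ezh2 itself was not listed, so its level gives no check of the genotypes.

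Hes, Her, Hey and Helt proteins are basic helix-loop-helix transcription factors that pair with each other and mostly repress their targets. Many of their genes are switched on by Notch signalling. In the developing brain and spinal cord such repressors hold down proneural genes and keep cells as progenitors, and in the presomitic mesoderm other members drive the segmentation clock.

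The authors kept genes that differed between the libraries. Every listed gene has, in the authors' deposited table, a log2 fold change of 1 or more in size and an FDR of 0.00996 or less. That selection is part of how the 8 genes were chosen, so their differences are a description with no test. With 1 library per genotype there is no spread between replicates. Intervals in brackets are 95% exact intervals that cover counting error only. Counts summed over the 1287 selected genes were 764775 in the mutant and 799647 in the WT library. These sums are not the depth of the libraries. FPKM is the authors' read density scaled by transcript length and library size, and it is the scale on which levels of different genes are set side by side.

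All 8 genes were at least 2-fold lower in the mutant library, as were 31.9% of all listed genes. Among the 110 listed genes outside the family that were classed under transcription, the lower share was 76.4%. None (0 of 8) was at least 2-fold higher, as 68.1% of all listed genes were. Their median log2 fold change was -1.43, against 1.31 over all listed genes and -1.32 over the 411 listed genes that were at least 2-fold lower. HES-3 and hes2.2 were at least 4-fold lower, a size reached by 4.58% of all listed genes. Summed over the 8 genes, there were 2801 reads in the mutant and 7552 in the WT library, a sum 2.67-fold lower in the mutant (2.56 to 2.79). In RNA from whole embryos, fewer cells that express a gene and less of its RNA per cell cannot be told apart.

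hes6, her8a and her8.2 carried most of the reads. hes6, also called her13.2, encodes a transcription cofactor known in zebrafish for its part in the segmentation clock. It had 824 reads and 32.3 FPKM in the mutant library, against 1835 reads and 73.4 FPKM in the WT library. The mutant count was 45.4% of the WT count on the scale of the authors' fold changes, 2.2-fold lower (2.03 to 2.40), the smallest difference of the 8 by read counts. By FPKM the smallest was that of hey1. her8a had 645 reads and 21.7 FPKM in the mutant library, against 2319 reads and 79.1 FPKM in the WT library. That is 3.56-fold lower (3.26 to 3.89), from the highest WT level of the 8 genes. The KEGG hit of this gene is hairy-related 8a, while its product name is a HES-6 cofactor isoform, so its name is uncertain. her8.2, a hairy-related gene that shares a KEGG orthology group with hes6, her8a and hes2.2, had 472 reads and 17.4 FPKM in the mutant library, against 1116 reads and 38.0 FPKM in the WT library, 2.34-fold lower (2.10 to 2.61). These 3 genes together had 1941 mutant and 5270 WT reads.

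**Figure D1:**
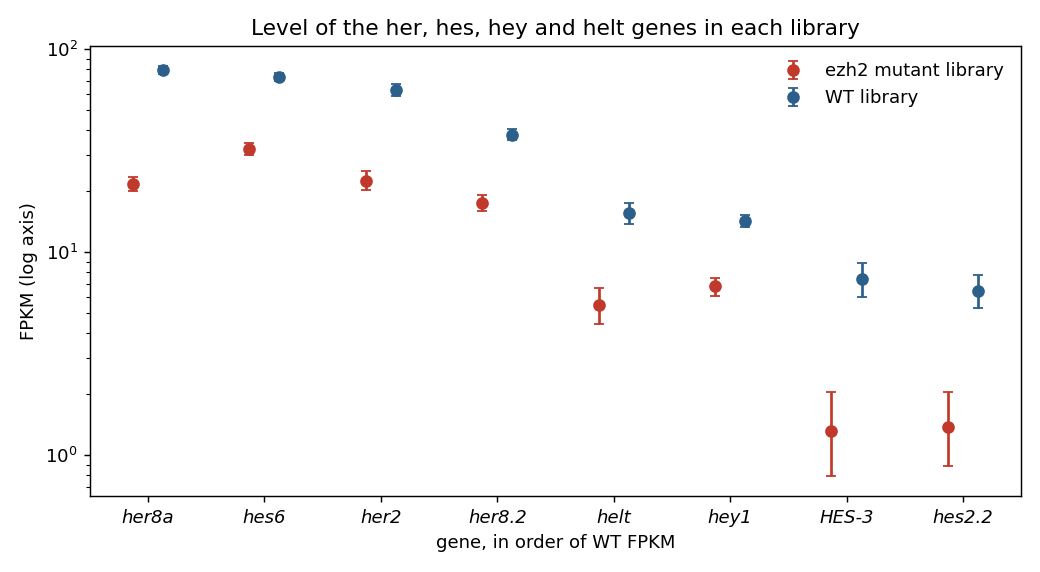
FPKM of the 8 genes in the ezh2 mutant library (red, left) and the WT library (blue, right) on a log axis, with 1 library per genotype and bars for the 95% Poisson interval of the read count. The mutant value lies below the WT value for every gene, and the highest level is that of hes6 in the mutant library (32.3 FPKM) and that of her8a in the WT library (79.1 FPKM).

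The next gene is named only by its product, hairy-related 2, and is called her2 here. It had 342 reads and 22.5 FPKM in the mutant library, against 921 reads and 63.0 FPKM in the WT library, and was 2.67-fold lower (2.35 to 3.03). In the RefSeq annotation of assembly GRCz12tu, used here for names and order alone, her2 is followed by her15.1 and her15.2. Both of these are listed and lower, with log2 fold changes of -1.85 and -1.85. No other gene within 2 protein-coding genes on either side of the 7 genes with a RefSeq symbol was listed under its symbol. That holds for her13 beside her8.2 and for hes2.1 beside hes2.2, which are family members.

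hey1 and helt belong to separate branches of the family. hey1 encodes a factor that, in mouse, acts downstream of Notch in blood vessels and the heart. It had 377 reads and 6.79 FPKM in the mutant library, against 864 reads and 14.2 FPKM in the WT library, and was 2.27-fold lower by counts (2.01 to 2.57) and 2.09-fold lower by FPKM. Helt in mouse is a determinant of GABAergic neurons in the midbrain. Zebrafish helt had 98 reads and 5.49 FPKM in the mutant library, against 272 reads and 15.6 FPKM in the WT library. It was 2.75-fold lower (2.17 to 3.5).

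HES-3 and hes2.2 had the lowest levels and the largest fold differences. The gene with the product name transcription factor HES-3, for which the table gives no zebrafish symbol, had 19 reads and 1.32 FPKM in the mutant library, against 110 reads and 7.35 FPKM in the WT library. That is 5.73-fold lower (3.5 to 9.88). hes2.2, which the table names as a tandem duplicate of hes2, had 24 reads and 1.38 FPKM in the mutant library, against 115 reads and 6.46 FPKM in the WT library, 4.74-fold lower (3.04 to 7.70). Reads shared with its tandem partner could have been divided between the copies, so its value is uncertain. The authors' selection asked for a larger difference at such counts. Among the 34 lower genes with a mean count from 50 to below 100, the smallest log2 difference listed was -1.27 and the median was -1.48. HES-3 at -2.49 and hes2.2 at -2.22 are among these 34 genes, so they could not lie short of the smallest difference. Both lay beyond the median, which includes them.

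**Figure D2:**
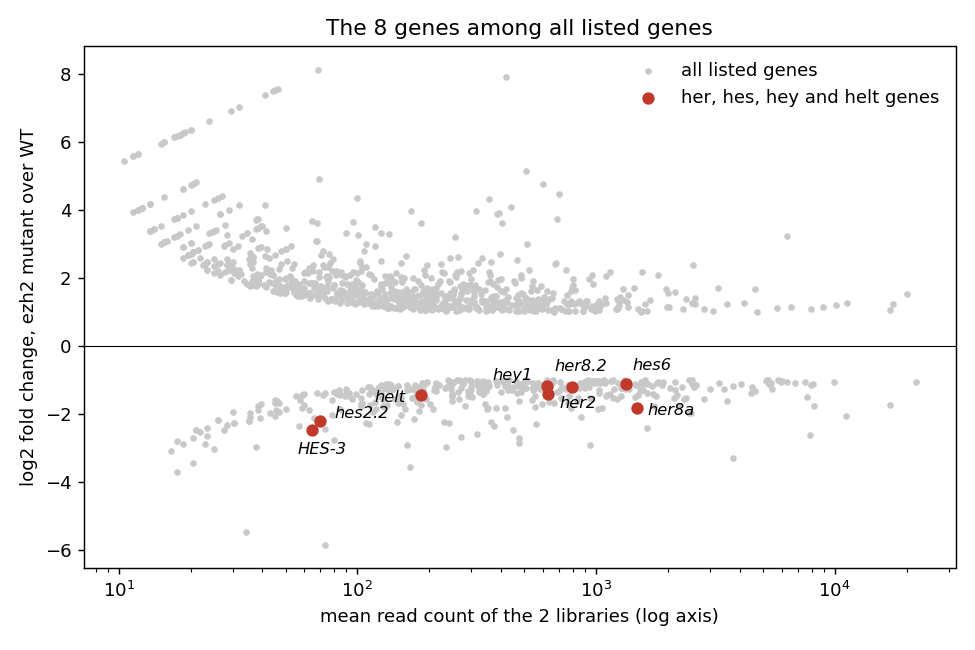
Log2 fold change of the ezh2 mutant over the WT library against the mean read count (log axis) for all 1287 listed genes (grey) and the 8 genes described here (red). The empty band around 0 is the authors' selection, and it widens toward low counts, where HES-3 (-2.49) and hes2.2 (-2.22) lie.

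In the mutant library the order of the levels was hes6, her2, her8a, her8.2, hey1, helt, hes2.2 and HES-3, from high to low. Neighbours with overlapping Poisson intervals were her2 and her8a, hey1 and helt, and hes2.2 and HES-3. In the WT library the order was her8a, hes6, her2, her8.2, helt, hey1, HES-3 and hes2.2. There the overlapping neighbours were her8a and hes6, helt and hey1, and HES-3 and hes2.2. her8a thus stood at rank 3 in the mutant library and at rank 1 in the WT library. Its share of the summed FPKM of the 8 genes was 19.9% in the mutant and 26.6% in the WT library. The share of hes6 was 29.7% in the mutant and 24.7% in the WT library. Among all listed genes, the level of her8a in the mutant library was at or above that of 88.5% of genes, and in the WT library at or above that of 96.7%. For HES-3 these values were 17.5% in the mutant and 73.4% in the WT library. Most listed genes were selected as higher, with a median level of 4.14 FPKM in the mutant and 2.41 FPKM in the WT library. A gene selected as lower therefore falls in rank among them in part by the selection.

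The size of the difference varied between the 8 genes, in some pairs beyond the counting interval, which takes reads as independent. Of the 28 pairs of genes, 16 had a ratio of mutant-over-WT ratios whose 95% conditional exact interval left out 1. No adjustment was made for the number of pairs. The 16 include HES-3 and hes2.2, each against helt, her2, her8.2, hey1 and hes6. At the low counts of HES-3 and hes2.2 the authors' selection asked for a larger difference. In the order of the fold changes, her8a and helt were the only neighbours whose interval left out 1, with a ratio of ratios of 0.772 (0.600 to 0.999). The other 6 pairs of neighbours had intervals that held 1. her8a and hes6 had similar WT levels, and the mutant-over-WT ratio of her8a was 0.619 times that of hes6 (0.548 to 0.700). For her2 against hes6 this value was 0.827 (0.710 to 0.962).

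**Figure D3:**
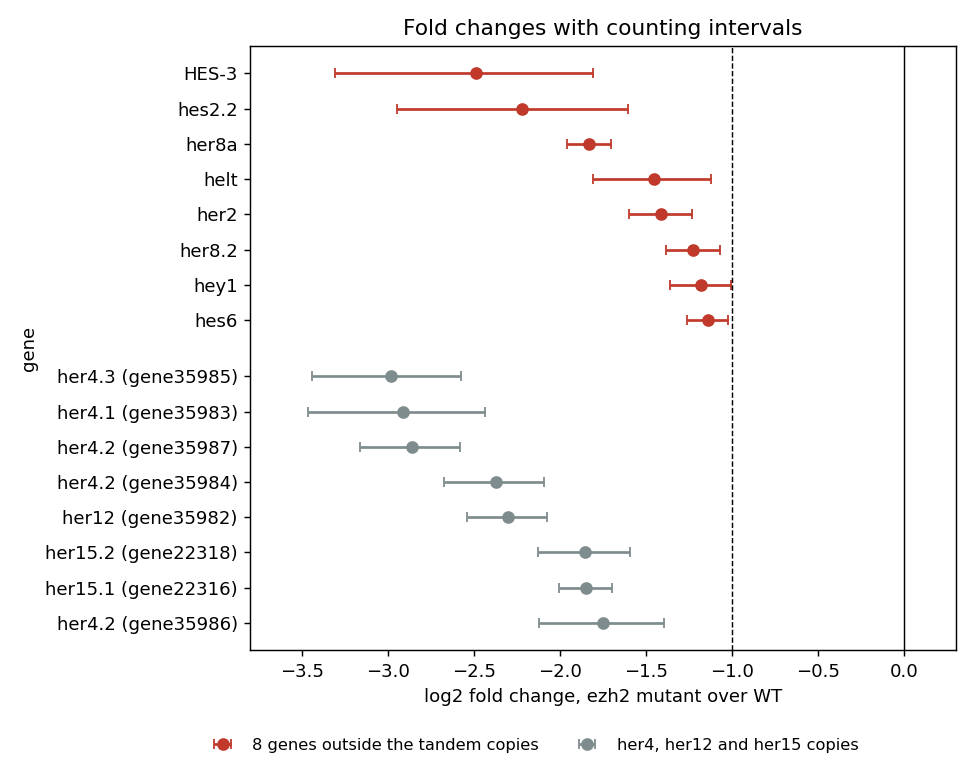
Log2 fold change (ezh2 mutant over WT) of the 8 genes (red) and of the 8 listed her4, her12 and her15 rows (grey), with 95% exact counting intervals and a dashed line at a log2 value of -1. The 8 genes lie from -2.49 to -1.14, and their median of -1.43 is nearer 0 than the median of -2.34 of the tandem copies.

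The tandem her4, her12 and her15 rows differed more in sum and median, while single rows overlapped with the 8 genes. Their log2 fold changes ran from -2.98 to -1.75. HES-3 lay beyond 5 of these 8 rows, hes2.2 beyond 3 and her8a beyond 1, and the other 5 genes beyond 0. Summed over the tandem rows there were 1180 mutant and 5527 WT reads, 4.64-fold lower (4.35 to 4.94). The mutant-over-WT ratio of the summed reads of the 8 genes described here was 1.74 times that of the tandem rows (1.61 to 1.88), a comparison of these 2 libraries alone. Reads of near-identical tandem copies may have been divided between rows, which the sum takes up except for copies that are not listed. In the RefSeq annotation, 18 symbols of the family lie outside her4, her12 and her15, and 7 of them matched a gene described here. The other 11, among them her1, her6, her7, her9, hey2 and heyl, were not listed under their symbols and are not analysed here. One of the 11 may be the gene named HES-3.

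Most of the 8 genes shared several annotation terms. These terms describe traits of the protein family that also gives the genes their names, so the sharing follows from the choice by name. The KOG class transcription was given to 7 of the 8 genes, all except her2. Outside the family, 110 listed genes were in that class, 8.55% of all listed genes. Of these 110, 84 (76.4%) were lower and 26 higher, against 31.9% lower and 68.1% higher over all listed genes. The Gene Ontology term protein dimerization activity was carried by 7 of the 8 genes, all except hes6, which carried protein heterodimerization activity. Outside the family, protein dimerization activity was carried by 24 listed genes, 1.86% of all listed genes. Of these, 22 were lower and 2 higher, and their log2 fold changes had a median of -1.53. Broader shared terms were less one-sided. DNA binding was carried by 7 of the 8 genes and by 38 listed genes outside the family, 29 lower and 9 higher. The term nucleus was carried by 6 of the 8 and by 159 others, 109 lower and 50 higher. Regulation of transcription, DNA-templated, was carried by 5 of the 8 and by 106 others, 81 lower and 25 higher. HES-3 and her8a carried the term negative regulation of neurogenesis, hes6 the term somitogenesis and hey1 the term Notch signaling pathway.

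The listed Notch ligand and receptor genes, as far as they were matched, were lower in the mutant library. Whether they act on the 8 genes in these embryos was not tested, and hey1 alone of the 8 carried the term Notch signaling pathway. Of 13 Notch ligand and receptor genes, 7 were listed, 7 were at least 2-fold lower and 0 higher. Listing itself asked for a 2-fold difference, so in this and the following lists the direction alone can vary, and it is read against 31.9% lower and 68.1% higher over all listed genes. Their median was -1.23 on the log2 scale. The receptor gene notch1a had 3354 mutant and 6969 WT reads and was 2.06-fold lower by counts (1.97 to 2.14) and 2.25-fold lower by FPKM. notch3 was 2.11-fold lower (2.03 to 2.19) and notch1b 2.34-fold lower (2.21 to 2.49). The ligand gene dlb had 2272 mutant and 5222 WT reads and was 2.28-fold lower (2.17 to 2.39). The ligand gene dld was matched to the list by its product name. A jagged-2-like gene, also known by its product name, was not matched, so the 0 higher holds for the matched genes alone. Singled out after its values were seen, this jagged-2-like gene had 211 mutant and 87 WT reads and was 2.45-fold higher (1.90 to 3.18).

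Of 32 Notch modifiers, cofactors and feedback genes, 4 were listed, hey1 among them. nrarpa and nrarpb encode ankyrin repeat proteins that are induced by Notch and dampen it. nrarpa had 135 mutant and 763 WT reads, 5.60-fold lower (4.65 to 6.77). nrarpb had 1158 mutant and 3213 WT reads, 2.75-fold lower by counts (2.57 to 2.94). By FPKM nrarpa was 5.19-fold lower and nrarpb 2.32-fold lower, the latter outside its counting interval. ncstn, which encodes the nicastrin subunit of the gamma-secretase that cleaves Notch, was the 1 higher gene, with 302 mutant and 111 WT reads, 2.75-fold higher (2.2 to 3.45).

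Proneural genes, which Hes and Her repressors are known to hold down, and other neurogenic helix-loop-helix genes were also lower where listed. Of 31 proneural and neurogenic helix-loop-helix genes, 15 were listed, 15 were at least 2-fold lower and 0 higher. Over all listed genes 31.9% were lower and 68.1% higher. Shares nearer in kind are those given above for genes outside the family. In the transcription class 76.4% were lower, and with protein dimerization activity 22 of 24 were lower. These groups may include some of the 15. The median of the 15 was -1.57 on the log2 scale. Not all of the 15 are proneural genes, since olig and tal genes are among them. With at least 50 counts in 1 library, the largest difference was that of olig2, 4.25-fold lower (3.57 to 5.08). Next were atoh7, 4.03-fold lower (2.22 to 7.83), and tal1, 3.45-fold lower (2.82 to 4.24). bhlhe23 had only 5 mutant and 36 WT reads. neurog1, a determinant of sensory and other neurons, had 402 mutant and 1261 WT reads and was 3.11-fold lower (2.77 to 3.48). ascl1b was 3.21-fold lower (2.85 to 3.63) and ascl1a 2.93-fold lower (2.62 to 3.28), both achaete-scute type proneural genes. neurod4, which acts in neuronal differentiation, had 614 mutant and 1843 WT reads and was 2.97-fold lower (2.71 to 3.26). tal2, which in mouse acts in midbrain GABAergic neurons, had 94 mutant and 310 WT reads. It was 3.27-fold lower by counts (2.58 to 4.16) and 2.65-fold lower by FPKM. The her, hes, hey and helt genes described here and the listed proneural and neurogenic genes were thus lower in the same library. The former were chosen by name, and hes6 among them encodes a cofactor. Whether each of them represses proneural genes was not tested.

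**Figure D4:**
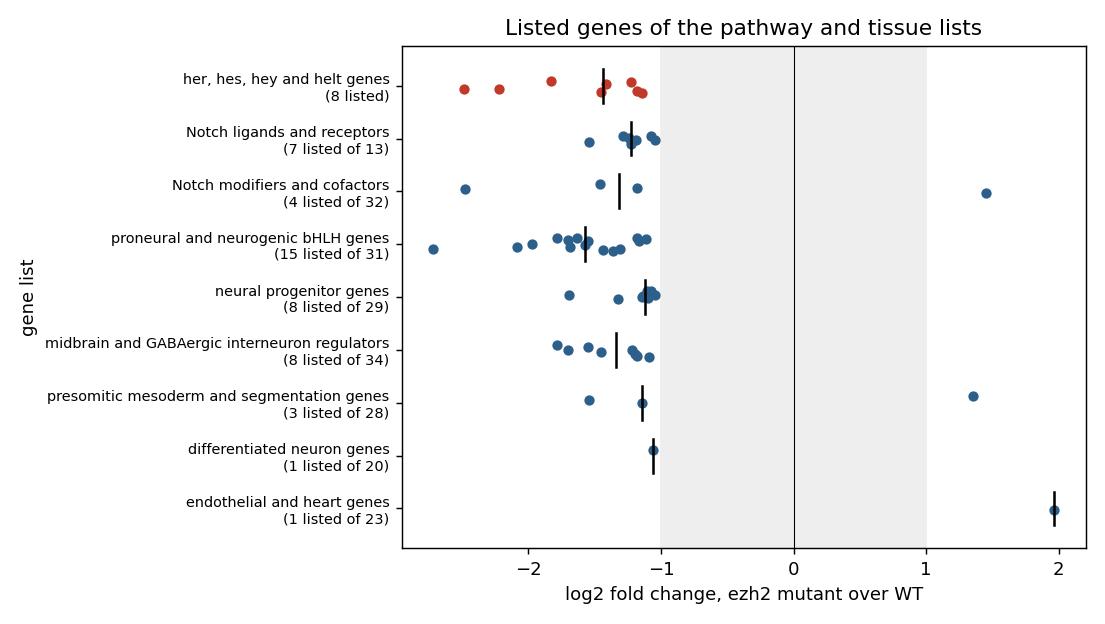
Log2 fold change (ezh2 mutant over WT) of the 8 genes (red) and of listed genes in 8 pathway and tissue lists (blue), 1 point a gene, with a black bar at the median and the band excluded by the authors' selection in grey. The 7 Notch ligands and receptors and the 15 proneural and neurogenic genes all lie below -1, and ncstn, wnt3a and gata4 are the points above 1.

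Listed marker genes of neural tissue were lower as well. Of 29 neural progenitor genes, 8 were listed and 8 were lower. They include hes6 and the receptor genes notch1a and notch3 given above. Their log2 fold changes had a median of -1.12. sox3, a progenitor factor of the SoxB1 group, had 3303 mutant and 7328 WT reads and was 2.2-fold lower (2.11 to 2.29). sox19a was 2.5-fold lower (2.39 to 2.61). Of 20 differentiated neuron genes 1 was matched, elavl3, by its product name, with 6399 mutant and 13461 WT reads. Counts summed over the 5 progenitor genes left without these 3 were 7203 in the mutant and 17056 in the WT library, and 5 of the 5 were lower. The part of these lists in the values of the 8 genes was not tested.

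Among 34 regulators of midbrain and GABAergic neurons, 8 were listed and 8 were lower, among them helt and the proneural list's ascl1a, tal1 and tal2. Their log2 fold changes had a median of -1.34. otx2b, which specifies forebrain and midbrain, had 326 mutant and 767 WT reads and was 2.33-fold lower (2.04 to 2.66). pax3a was 2.29-fold lower (1.99 to 2.65) and lhx5 2.27-fold lower (1.96 to 2.64). helt, at 2.75-fold lower (2.17 to 3.5), had an interval that overlapped those of all 3 genes. In RNA from whole embryos, reads of the listed genes, tal1 among them, cannot be assigned to the midbrain or to neurons.

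The segmentation and the heart and vessel lists had few listed genes. Of 28 presomitic mesoderm and segmentation genes 3 were listed, of which hes6 and the ligand gene dld were lower and wnt3a was higher, with 409 mutant and 161 WT reads. Of 23 endothelial and heart genes 1 was listed, the transcription factor gene gata4, with 75 mutant and 19 WT reads.

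The listed genes whose levels were most like those of each of the 8 genes were found by the distance between their log2 FPKM values in the 2 libraries. The closest match of helt was foxn4, a forkhead gene, with 5.70 FPKM in the mutant and 15.8 FPKM in the WT library, at a distance of 0.056. The closest match of her8.2 was notch1a, with 17.7 FPKM in the mutant and 39.9 FPKM in the WT library, at a distance of 0.070. For hey1 it was cenpf, which encodes a centromere protein, at 0.083, and for her2 the POU factor gene pou3f1 at 0.12. For hes6 it was meaf6 at 0.12 and for her8a it was her15.1 at 0.24. The closest match of both HES-3 and hes2.2 was gata1a, which encodes an erythroid factor. gata1a had 1.22 FPKM in the mutant and 5.82 FPKM in the WT library. It lay at 0.35 from HES-3, the largest distance among the closest matches, and at 0.23 from hes2.2. A likeness over 2 libraries rests on the level and 1 difference.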

How the data were processed

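RNA of 2 whole-embryo libraries, 1 of ezh2-/- and 1 of WT embryos, was compared. Per the labels' protocols, the libraries came from poly(A) RNA and the NEBNext Ultra kit, which does not mark strand, so overlapping antisense reads cannot be told apart. The submitters' processing notes name the build GRCz10, Bowtie 0.12.2 and Cufflinks, with no role. Per the file headers, the authors deposited a raw read count and an FPKM value per gene and library. They also deposited an FDR (an adjusted p-value) and a log2 fold change, mutant relative to WT. No source used here gives the method behind these.

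The 8 genes and the 8 lists were chosen with earlier results of these data known. Symbols came from the zebrafish KEGG hit, updated by gene ID in RefSeq GRCz12tu (561 genes), from Swiss-Prot (51) or from a product name recognised after the table was opened (5). Named genes were the 8 genes, up to 8 of each list with at least 50 counts in 1 library, and the 3 nearest by level. The nearest were sought among genes with a symbol, and the closest is given. The builds differ, so no coordinates are given.

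Log2 fold changes were log2((mutant count + 0.5)/(WT count + 0.5)) plus 0.0144, the median offset of the deposited log2 fold change from the log2 count ratio in the 391 genes that had 200 or more counts in each library. Folds in words are count ratios on that scale, with exact Clopper-Pearson intervals. The reads carry no molecular identifiers and are not independent molecules, so the intervals cover counting error only. Levels have exact Poisson intervals. Alternatives were other added counts (2 or 5), FPKM with 0.1 added, other scales, other symbol sources and the deposited fold changes. The scale, the folds and their intervals were tested on simulated Poisson counts, which take reads as independent. Only genes with a summed count of 200 or more were simulated, which leaves out HES-3 and hes2.2. The intervals of pairs of genes, the naming and the FPKM values were not tested in this way. Python 3.11.15, pandas 2.3.3, numpy 2.4.6, scipy 1.17.1 and matplotlib 3.10.9 were used.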

Additional observations from a re-analysis of the deposited data

How the results depend on the processing

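All 8 genes were at least 2-fold lower under each of the 7 other added counts, units, scales and sources of the fold, and with at least 50 counts in 1 library. For the deposited fold changes this was fixed by the authors' selection, and the main scale was set from them. The same was true of centring the listed genes on their median and of using no scale, since both lower every value. The limit of 50 counts could not remove a gene, because the lowest WT count of the 8 was 110, that of HES-3. Taking the scale from counts per FPKM moved all 8 alike, with hes6 at a log2 value of -1.12 against -1.14. The other added counts and FPKM could move genes by differing amounts. From FPKM the smallest log2 difference was -1.05, that of hey1. Of the 56 log2 fold changes recomputed for the 8 genes, 48 stayed within the counting interval. The 8 outside it came from setting the median of the listed genes to 0, a shift of -1.31 by construction, since most listed genes were selected as higher. That scale gave a log2 fold change of the summed reads of -2.72, against -1.42, and left 0 higher genes in each of the Notch modifier, segmentation and heart lists, against 1 in each. Without her8a, left out after its name was found uncertain, the summed log2 fold change was -1.26. Leaving out genes named from a product name was also a choice made after seeing the data. Without them, 1 segmentation gene and 0 neuron genes were lower. So were 6 Notch ligands and receptors, 13 genes of the proneural and neurogenic list and 7 progenitor genes. From FPKM, 0 neuron genes and 13 of 15 proneural and neurogenic genes were at least 2-fold lower. There elavl3 had a log2 value of -0.97, nhlh2 of -0.97 and atoh1b of -0.88. No paired analysis was possible because each genotype has 1 library, and no library could be left out. HES-3 and hes2.2, with 19 and 24 mutant reads, are the least precise.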
